A study of Mus musculus with 2 samples.

Results

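TGF-beta, BMP and activin signaling genes were examined in mammary tumors of mice fed with or without GW9662, an irreversible inhibitor of PPARγ. The genes were taken by name from a written list of 43 ligands, receptors, latent binding proteins, antagonists, Smads and response genes. The list did not use their values but was drawn up with earlier results of these data known. Every probe set annotated to only 1 of them was read. Of these, 42 genes had a probe set (72 probe sets in all) among the 12393 genes read on the array. Gdf15 was not analysed here.

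The animals were wild-type FVB females that were 5 weeks old at the first treatment, a subcutaneous depot of 15 mg medroxyprogesterone acetate, a long-acting progestin. Tumors were then started with DMBA, a polycyclic carcinogen given orally once a week, at 1 mg per dose for 4 doses. All mice had both agents. They differed in the food supplied once the carcinogen course was over, which was standard chow for the control diet or chow containing 0.1% GW9662. Each diet is represented by a pool of RNA from 5 mice on 1 Affymetrix mouse 430A 2.0 array, so the comparison rests on 2 arrays with no replicate and no p-value can be given. The unit is a linear signal intensity per probe set, a group of short oligonucleotides that reads part of a transcript. Each gene is represented by its brightest probe set, by mean signal over both arrays. A signal of 100 was taken as a floor. Where the dimmer signal was below it, the fold is a lower bound (the brighter signal divided by 100), and where both were below it no fold is given. The highest signal among olfactory receptor probe sets, which should be silent in mammary tissue, was 25.8. The only measure of spread available was the variation of log2 ratios among probe sets that read 1 gene (SD 0.36, 2639 genes), which holds no variation between mice. It is the SD of a single ratio. A difference between 2 ratios spreads more widely, so a gap slightly beyond this SD is unremarkable.

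Ligands of this superfamily bind pairs of type I and type II serine/threonine kinase receptors, which phosphorylate receptor Smads. TGF-beta and activin act mainly through Smad2 and Smad3, and BMPs through Smad1 and Smad5, each with the shared partner Smad4, while Smad6 and Smad7 inhibit the pathway. TGF-beta is secreted in a latent form held in the matrix by latent TGF-beta binding proteins, and antagonists such as follistatin and noggin trap activins or BMPs outside the cell. In the mammary gland, TGF-beta is known for restraining ductal growth and for its dual part in carcinomas, and BMPs and activin B are also known in fat tissue.

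Most of these genes differed little between the diets, and the largest differences lay in a few secreted factors. The number past 2-fold was near the share of all genes, so it does not set the list apart. Follistatin (Fst) was 2.56-fold lower in tumors from GW9662-treated animals, and the ligands Gdf10 and Bmp4 were lower at modest signals. Skil, which acts inside the cell, had a higher signal at its brightest probe set. Of the 42 genes, 24 had a signal of at least 300 on 1 or both arrays, 10 reached 100 but not 300, and 8 were below 100 on both arrays. Of the 24 genes, 0 were at least 3-fold lower and 0 at least 3-fold higher, the threshold of the study's methods. Of all 6053 genes with a signal of 300, 2.68% were at least 3-fold lower and 0.215% at least 3-fold higher. With shares this small, 0 of 24 genes does not set the list apart from the array. The study's metabolic gene table and pathway figure used a somewhat lower fold, which Fst (2.56-fold lower) passes only narrowly by the deposited signals. At 2-fold, 1 of the 24 genes was lower and 0 were higher, beside 4.68% and 1.02% of all genes. At 1.5-fold, a threshold added after the values were seen, 1 was lower and 2 (Skil and Smad4, whose probe sets disagree) were higher, beside 9.8% and 6.41% of all genes. Among the 34 genes with a mean signal of at least 100, 17 were lower and 17 were higher by any amount, with a median log2 ratio of GW9662 over control of -0.02. Over all 8009 genes with such a signal, 47.1% were lower and 52.9% were higher, with a median of 0.03. These counts are descriptions of 2 arrays.

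**Figure D1:**
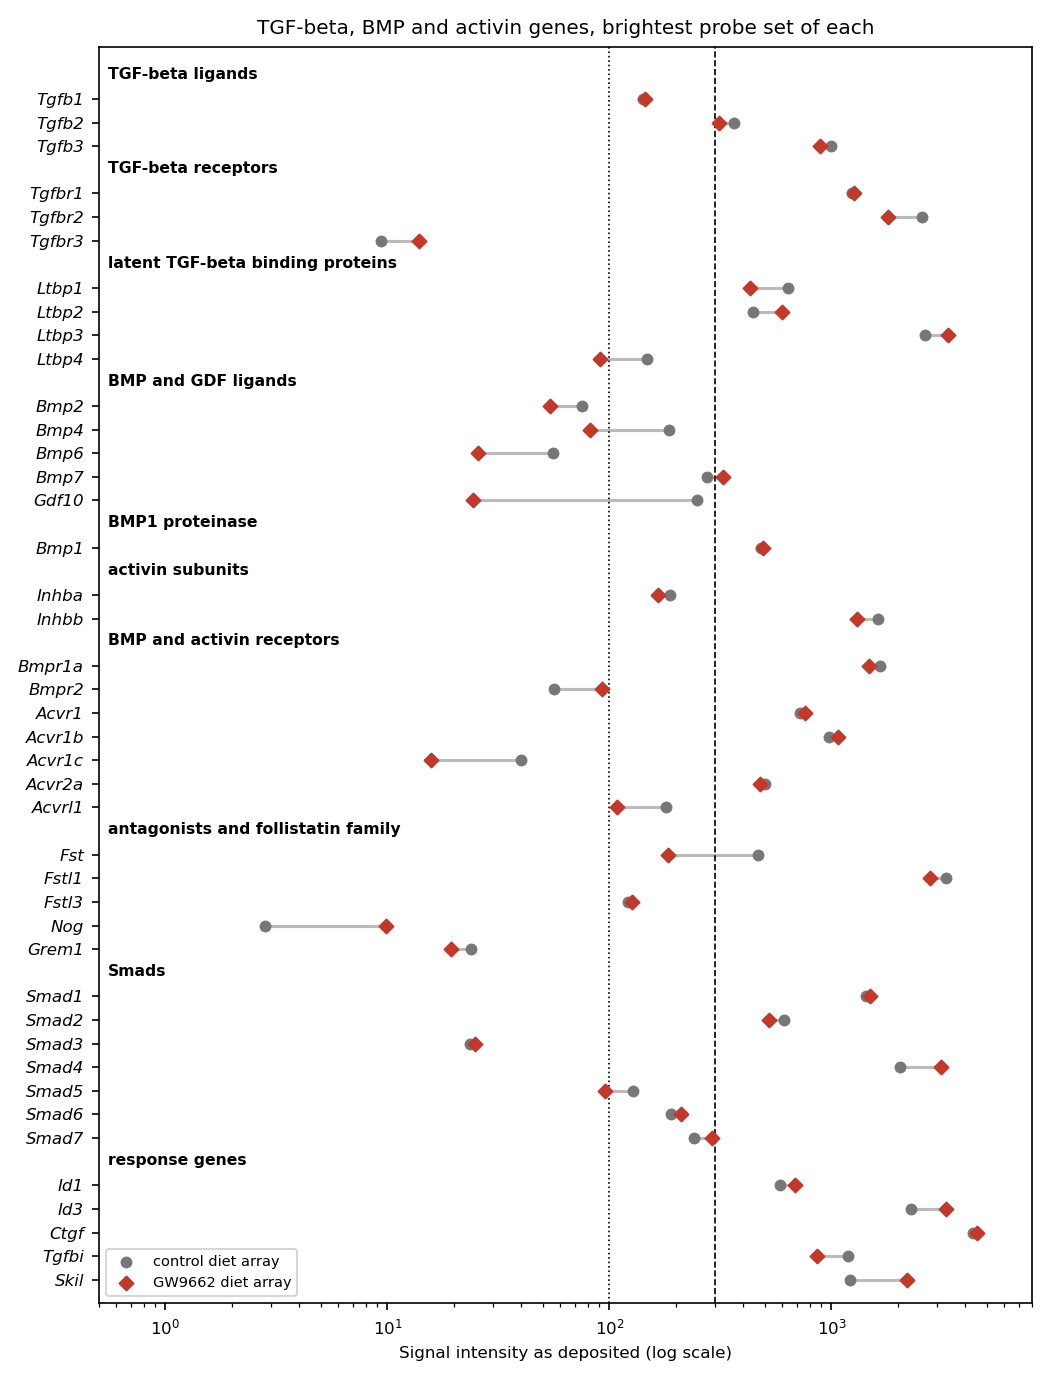
Signals (log scale) of the 42 genes, each at its brightest probe set and grouped by role, with gray circles for the control diet array and red diamonds for the GW9662 diet array. The dotted line marks the floor of 100 and the dashed line the signal minimum of 300, and the longest line above the floor on both arrays is that of Fst, from 469 to 183.

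These differences stand beside far lower signals of fat and muscle transcripts in the GW9662 pool. All 14 measured adipocyte markers were lower on the GW9662 array, their summed signal going from 72650 to 8431, and all 14 skeletal muscle markers with a mean signal of 100 were lower (summed over 18 markers, 13662 and 1616). Of the 13 endothelial markers, 12 had a mean signal of 100 and all 12 were lower, with a median log2 ratio of -0.71 and summed signals of 7070 and 4186. Of 14 fibroblast markers, 12 were lower and 2 higher, with a median of -0.55 and summed signals of 38812 and 27278. No adipocyte, fibroblast or endothelial marker was below 100 on both arrays. Presence of epithelium was checked with luminal markers, which cannot tell tumor from normal epithelium. Of these, 5 were lower and 9 higher, with a median log2 ratio of 0.16 over 14 genes and summed signals of 55249 and 56495. Krt8 had 9496 and 9665, while Elf5, a transcription factor of luminal progenitors and milk secretion, had 4138 and 2040, and Muc1 (196 and 112) and Elf3 (245 and 271) were dim. The part of these tissues in the values below was not tested, and in such bulk samples fewer cells of a type and less RNA per cell cannot be told apart.

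The TGF-beta ligands were close to level. Tgfb3, which is made by mammary epithelium and stroma, read 993 in the control pool and 889 in the GW9662 pool. Tgfb1, the most studied isoform in carcinomas, had 141 and 145, and Tgfb2 had 365 and 311 at its brightest probe set. The other Tgfb2 probe sets were lower too, with 242 and 181 at one and 212 and 125 at the dimmest, log2 ratios of -0.42 and -0.76. All 3 Tgfb2 probe sets were therefore lower on the GW9662 array, though by amounts from 1.18-fold to 1.69-fold.

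Among TGF-beta receptors, the type II receptor was lower and the type I receptor was level. Tgfbr2, the receptor that binds TGF-beta first, gave 2565 with the control diet and 1791 with GW9662, 1.43-fold lower. Tgfbr1, the type I kinase it recruits, had 1237 and 1259. The co-receptor Tgfbr3 was below the floor on both arrays (9.4 and 13.9). The difference between the log2 ratios of Tgfbr2 (-0.52) and Tgfbr1 (0.03) was larger than the SD of a single ratio (0.36), which understates the spread of a difference. Each also rests on 1 probe set above the floor.

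The latent TGF-beta binding proteins, which store TGF-beta in the matrix, did not move together. Ltbp1, which anchors latent TGF-beta to the matrix, had signals of 634 and 431, 1.47-fold lower. Ltbp4, also a protein of elastic fibers, was at least 1.47-fold lower (147 and 90.5). Ltbp2, which binds microfibrils and not latent TGF-beta, had 443 and 599, 1.35-fold higher. The brighter Ltbp3 probe set gave 2649 and 3360, but the dimmer gave 1158 and 1008. Its log2 ratios of 0.34 and -0.20 differed in direction by more than the SD of a single ratio, so no direction was read for Ltbp3. Bmp1, a proteinase that despite its name is not a BMP ligand and that processes procollagen and releases latent TGF-beta complexes, was level (484 and 492).

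Among BMP and GDF ligands, Gdf10 and Bmp4 were lower and Bmp7 was slightly higher. Gdf10, also called BMP3b, read 249 in the control pool and 24.3 in the GW9662 pool, at least 2.49-fold lower, and its GW9662 signal was no higher than the brightest olfactory receptor. Bmp4, which acts in mammary bud formation and in the commitment of fat cell precursors, had 186 and 82.0, at least 1.86-fold lower. Both reached 100 but not 300, so they are outside the counts above. With a signal minimum of 100 and signals below 100 set to 100, 2 of 34 genes (Fst and Gdf10) were at least 2-fold lower and 0 were at least 2-fold higher, beside 4.24% and 0.89% of all 8206 genes with such a signal. These counts are near the shares of all genes. The bound of Bmp4 falls short of 2-fold. Bmp7, a ligand of epithelium and kidney, read 276 and 326 at the brightest probe set, 226 and 368 (1.63-fold higher) at another of nearly the same mean signal, and 103 and 61.7 at the remaining one near the floor. Bmp2 (75.5 and 54.0) and Bmp6 (55.8 and 25.6) were below the floor on both arrays.

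Promoter sequence is shown for the lower ligands Gdf10 and Bmp4 and for the higher BMP response gene Id3 described further on, as the genes with a promoter in the RefSeq table among those that stood furthest from level on their side. Promoters were matched for 28 of the 42 genes, as 35 start sites, and no entry was found for Fst, Skil or Smad4. Each line gives the 250 bases before the annotated start site in GRCm38.p6, 5′ to 3′ on the gene's own strand. Capitals mark a match to CAGAC, the short Smad binding element, on either strand.
Gdf10, chr14:33923337-33923586, plus strand: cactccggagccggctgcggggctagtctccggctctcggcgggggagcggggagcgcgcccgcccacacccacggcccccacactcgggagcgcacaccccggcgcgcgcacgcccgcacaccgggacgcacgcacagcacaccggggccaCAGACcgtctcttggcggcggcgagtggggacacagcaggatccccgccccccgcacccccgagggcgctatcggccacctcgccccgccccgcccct
Bmp4, chr14:46390670-46390919, minus strand: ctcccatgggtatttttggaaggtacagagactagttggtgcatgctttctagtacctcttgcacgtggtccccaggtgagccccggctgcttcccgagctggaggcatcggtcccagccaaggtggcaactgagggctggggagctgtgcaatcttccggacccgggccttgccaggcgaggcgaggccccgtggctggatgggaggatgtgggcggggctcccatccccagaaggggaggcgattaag
Id3, chr4:136143572-136143821, plus strand: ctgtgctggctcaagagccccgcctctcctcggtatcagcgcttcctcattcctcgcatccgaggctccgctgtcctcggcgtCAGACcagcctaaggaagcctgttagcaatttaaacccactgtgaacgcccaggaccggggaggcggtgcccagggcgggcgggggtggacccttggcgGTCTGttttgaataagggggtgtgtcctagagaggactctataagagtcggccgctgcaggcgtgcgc
The first base of a CAGAC match lay at position -98 from the start site of Gdf10 and at positions -167 and -68 from that of Id3, with no match in the Bmp4 window. GGCGCC, the GC-rich element bound by BMP Smads, and AGGTCA, the core element of nuclear receptors, were also searched on both strands and had no match in these 3 windows, and no matches overlapped. CAGAC was present in 15 of the 35 promoters (42.9%) and in 42.2% of all 32851 promoters of the same length. GGCGCC was present in 8 of 35 (22.9%, beside 9.59% of all promoters) and AGGTCA in 2 of 35 (5.71%, beside 14%). The direct repeat AGGTCANAGGTCA, the form of a PPAR response element, was present in 0 of 35 and in 0.0335% of all promoters. An exact match is so rare in such windows that 0 of 35 says nothing about PPAR response elements of these genes. A match is a description of letters and not a bound site.

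**Figure D2:**
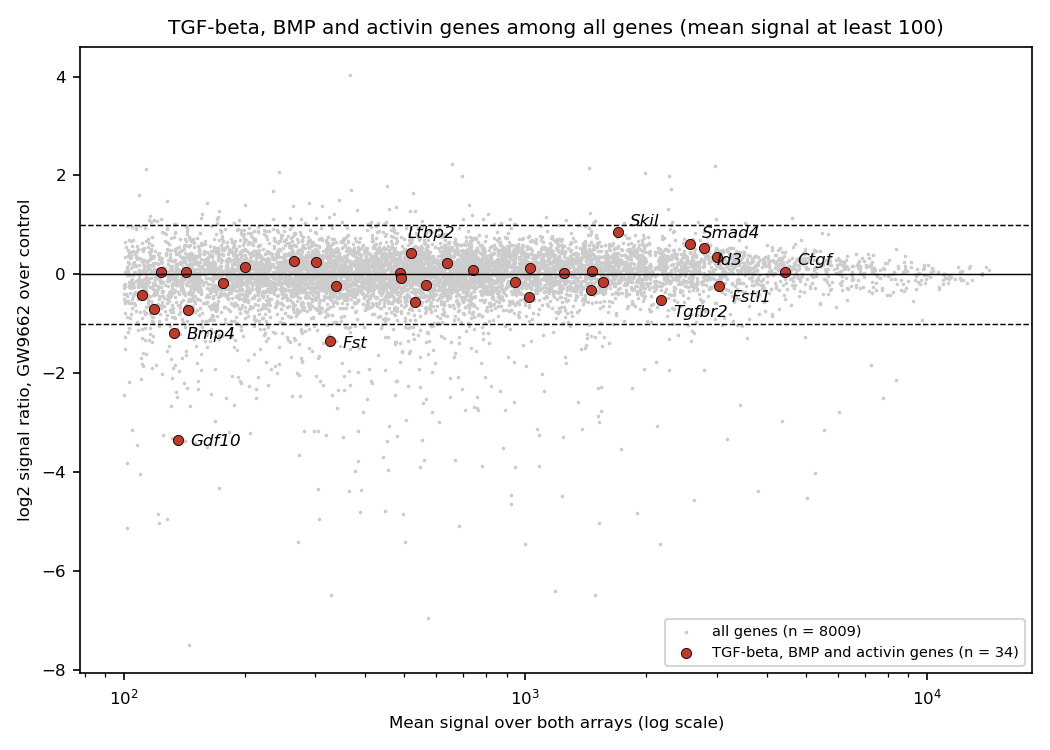
Log2 signal ratio of GW9662 over control against the mean signal over both arrays (log scale) for all 8009 genes with a mean signal of at least 100 in gray and the 34 TGF-beta, BMP and activin genes among them in red, with selected genes named. The dashed lines mark 2-fold differences, and Fst, Bmp4 and Gdf10 are the red points below the lower line.

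The activin arm showed its difference in the antagonist more than in the ligand. Activins are dimers of the subunits encoded by Inhba and Inhbb, and follistatin binds and neutralizes them. Fst, read by a single probe set, gave 469 with the control diet and 183 with GW9662, a log2 ratio of -1.36. Inhbb had 1622 and 1301, 1.25-fold lower, and a dimmer probe set was also lower (151 and 104). Inhba had 187 and 165. Fstl3, a related activin antagonist, was level (121 and 126). Fstl1, a secreted glycoprotein of stroma, was similar at its brighter (3274 and 2790) and dimmer (2843 and 2800) probe set, log2 ratios of -0.23 and -0.02. The log2 ratio of Fst differed from those of Fstl1, Fstl3, Inhba and Inhbb by more than the spread between probe sets. The BMP antagonists Nog (2.8 and 9.9) and Grem1 (23.9 and 19.4) were below the floor on both arrays.

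Receptors for BMPs and activins were mostly level. Acvr1b, the type I activin receptor, had signals of 978 and 1075, and Acvr2a, a type II receptor shared by activins and BMPs, had 502 and 478. Bmpr1a, a type I BMP receptor, had 1652 and 1478 at its brightest probe set. Its 3 other probe sets of mean signal 100 had 458 and 463, 268 and 309, and 285 and 186, so that the direction differed among them. Acvr1, another type I receptor for BMPs, had 718 and 763, while its dimmer probe set was at least 1.43-fold lower (143 and 68.4). Bmpr2 (56.1 and 92.3) and Acvr1c, the receptor ALK7 known in fat cells (39.9 and 15.7), were below the floor on both arrays.

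Acvrl1, the endothelial type I receptor ALK1, had the lowest log2 ratio of the 5 receptors of this group with a mean signal of 100, at 180 and 109 (1.66-fold lower, log2 ratio -0.73). Its co-receptor endoglin (Eng), on a separate list of pathway genes, had 592 and 316, 1.87-fold lower, a log2 ratio of -0.90. The median log2 ratio of the endothelial markers was -0.71, with single markers between -1.60 and -0.06, and the ratios of both Acvrl1 and Eng lay inside that range. That range is wide and also holds other genes of the list, such as Fst (-1.36) and Tgfbr2 (-0.52). It therefore does not set Acvrl1 and Eng apart, and their cell source was not tested.

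Among Smads, probe sets of the same gene often differed in direction, and none of the 3 Smads with a signal of 300 was 2-fold apart at its brightest probe set. Smad4 had signals of 2034 and 3101 at its brightest probe set, 1.52-fold higher, 2174 and 2719 at a second of similar mean signal, and 869 and 681 at the dimmest. Its log2 ratios of 0.61, 0.32 and -0.35 differed in direction by more than the SD of a single ratio, so no direction was read for Smad4. Smad1, which carries BMP signals, was level at the brighter probe set (1430 and 1495) and 1.82-fold lower at the dimmer (197 and 108). Smad2, which carries TGF-beta and activin signals, had 611 and 523, and Smad5 was at least 1.27-fold lower at its brighter probe set (127 and 95.3) but had 80 and 101 at the other. Smad3, the partner of Smad2, was within the range of olfactory receptor signals on both arrays (23.6 and 24.7). The inhibitory Smads, which are themselves induced by the pathway, were slightly higher, with 189 and 211 for Smad6 and 241 and 289 for Smad7. These differences of 1.11-fold and 1.20-fold were smaller than the spread between probe sets.

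**Figure D3:**
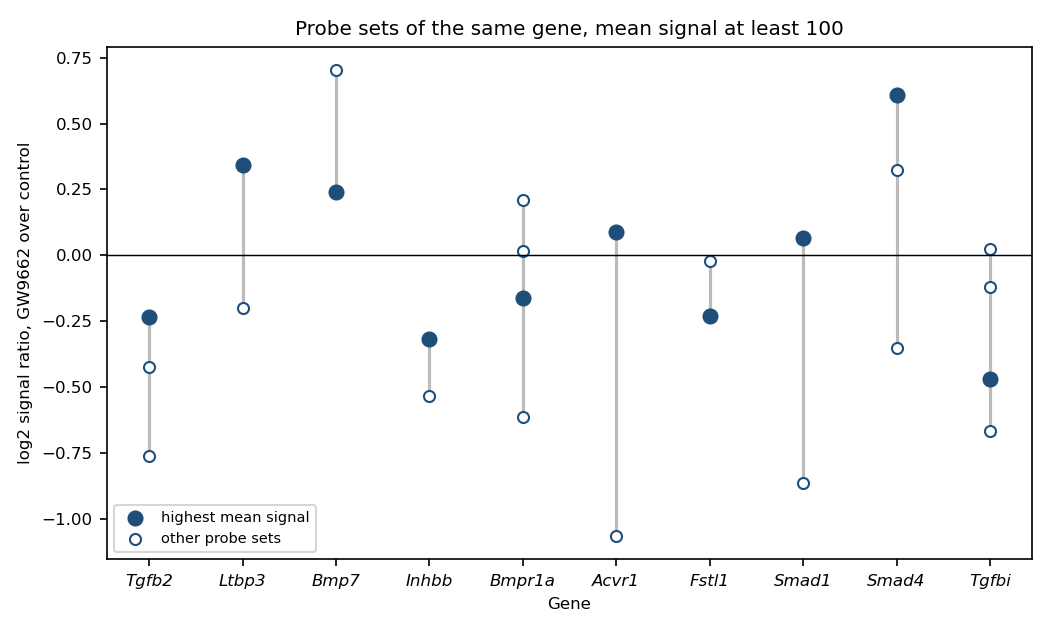
Log2 signal ratio of GW9662 over control at every probe set of mean signal 100 or more, for the 10 genes with at least 2 such probe sets; filled points mark the brightest probe set and open points the others. In 6 genes (Ltbp3, Bmpr1a, Acvr1, Smad1, Smad4 and Tgfbi) the points lie on both sides of 0.

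Response genes of the pathway did not move as a block. Skil encodes SnoN, a repressor of Smad activity that TGF-beta induces. It read 1214 in the control pool and 2184 in the GW9662 pool, 1.80-fold higher, the highest log2 ratio of the 34 genes (0.85). The other Skil probe set was below the floor on both arrays (55.9 and 69.2), so this rests on 1 probe set. Id3, an inhibitor of differentiation induced by BMPs, had 2280 and 3296, 1.45-fold higher. Its relative Id1, also induced by BMPs, had 589 and 686, 1.16-fold higher. Ctgf, a matrix protein induced by TGF-beta, was level at a high signal (4354 and 4521). Tgfbi, a secreted matrix protein named for its induction by TGF-beta, had 1189 and 859 at its brightest probe set, 1.38-fold lower. Its other probe sets had 1018 and 936, 519 and 528, and 475 and 299, so that it was lower at 3 of 4. Skil and Id3 were thus higher and Ctgf was level. The probe sets of Tgfbi differed in direction by more than the SD of a single ratio, so no direction was read for Tgfbi. That SD is a low bar for a range over 4 probe sets.

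Pathway genes outside the list of 43 were examined in the same way. Of 97 such genes, 78 had a probe set, 46 had a mean signal of at least 100 and 41 reached 300. Their median log2 ratio was -0.02, with 24 lower and 22 higher. At 2-fold, 2 of the 41 were lower and 0 were higher, and 1 of them was also past 3-fold, beside the shares of all genes given above. Htra3, a secreted serine protease that has been tied to inhibition of TGF-beta, had signals of 756 and 221, 3.42-fold lower. Decorin (Dcn), a matrix proteoglycan that binds TGF-beta and is also a fibroblast marker, had 7005 and 2925, 2.40-fold lower. Genes of latent TGF-beta storage and activation had a median log2 ratio of -0.41 over 10 genes, 7 lower and 3 higher, with the integrin subunit Itgav, also named after its value was seen, at 3271 and 3451. Other antagonists and modulators had a median of -0.58 over 7 genes, 5 lower and 2 higher. Among those higher was Sostdc1, a secreted BMP and Wnt antagonist, at 1447 and 2229, which was singled out after its value was seen. Intracellular Smad partners and regulators had a median of 0.12 over 12 genes, 4 lower and 8 higher, and none differed 2-fold. Other response genes had a median of 0.03 over 14 genes, 5 lower and 9 higher. Msx2, a homeobox gene induced by BMPs, had the highest ratio of these (336 and 609), while Id2 (2724 and 2486), Id4 (3256 and 3312) and Klf10 (1448 and 1316) were near level. These were also named after their values were seen. Of 16 other ligands on the array, 14 were below 100 on both arrays.

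**Figure D4:**
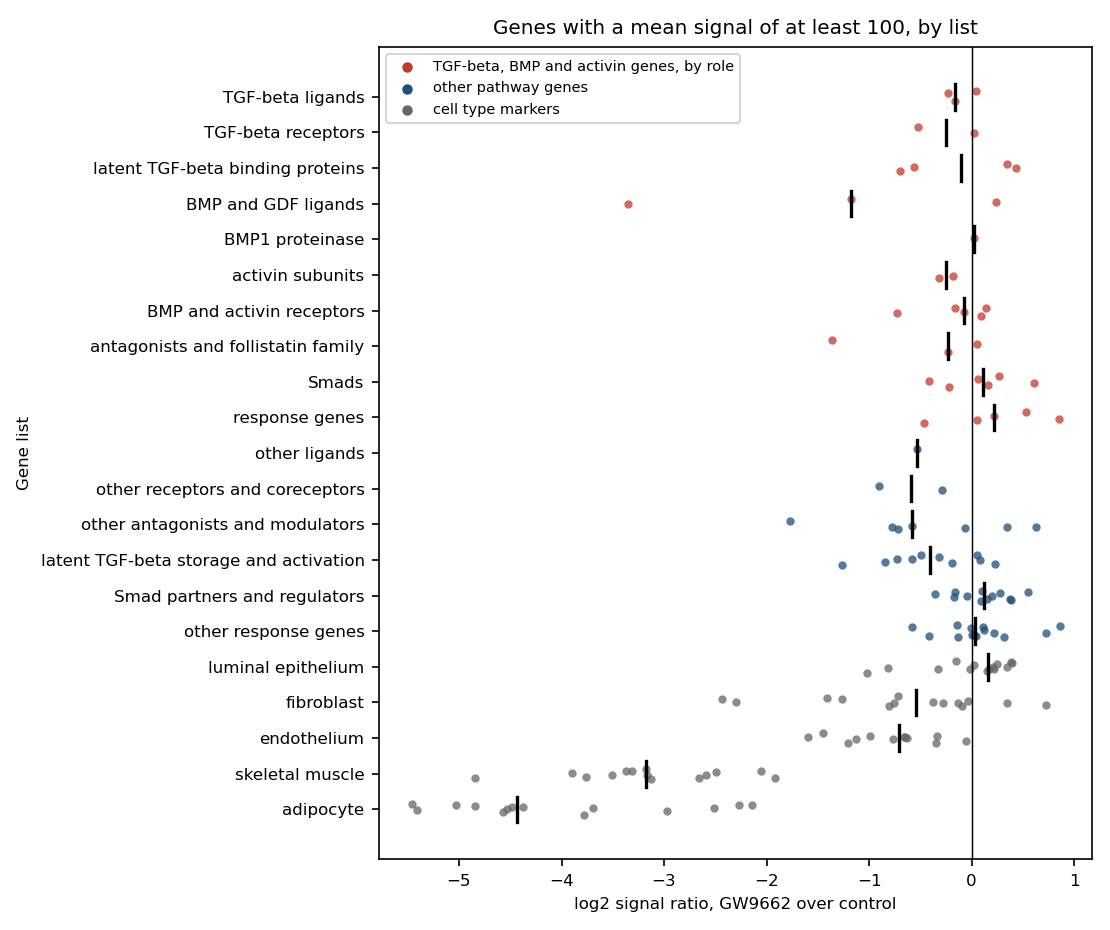
Log2 signal ratio of GW9662 over control for genes with a mean signal of at least 100, with the TGF-beta, BMP and activin genes by role in red, other pathway genes in blue and cell type markers in gray; each point is 1 gene and the black bar is the median of a list. Medians of the Smads (0.11), response genes (0.22) and luminal markers (0.16) differ little from that of all genes (0.03), and the adipocyte and skeletal muscle markers lie far to the left (-4.43 and -3.17).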

How the data were processed

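Tumor RNA pooled from 5 mice per diet was hybridized to Affymetrix mouse 430A 2.0 arrays, 1 per diet. The authors made the raw data with GeneChip Operating Software and deposited 1 linear signal intensity per probe set. How probe pairs were summarized and arrays scaled is not given in the sources used here. Both arrays had a 2% trimmed mean of 500.2. Signals ran from 0 to 14841 and were used as deposited, with 0 read as 0.1 on the log2 scale.

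Of 22690 probe sets, 20380 had 1 gene in the platform annotation, which is old. Symbols were updated by gene identifier (RefSeq, GRCm38.p6), and Ctgf was found under its newer symbol. Signal minimums and folds follow the study's methods (300 and 3-fold), with 2-fold and 1.5-fold added. With 1 array per diet no test was run, and precision is limited by the number of arrays. The genes and lists were chosen with earlier results of these data known. Every gene of the list was named. Other pathway genes were named by rule if at least 2-fold apart with a signal of 300, together with Eng, and the remaining ones named (Itgav, Sostdc1, Msx2, Id2, Id4, Klf10, Cdkn1a and Cdkn2b) were chosen after their values were seen. Motifs were searched in RefSeq promoter sequences. Alternatives covered centring, quantile normalization, the choice of probe set, low signals and the signal minimum. Calculations were made in Python 3.11.15 with pandas 2.3.3 and numpy 2.4.6, and plots with matplotlib 3.10.9.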

Additional observations from a re-analysis of the deposited data

How the results depend on the processing

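Fst was lower under every one of the 6 scaling, probe set and low-signal settings tried, with log2 ratios from -1.39 to -1.15. With quantile normalization (-1.25) or 50 added to every signal (-1.15), it fell short of the fold of the study's metabolic gene table. Fst has a single probe set and both its signals are above 100. The choice of probe set and setting low signals to 100 therefore could not change its ratio (-1.36). The count of TGF-beta, BMP and activin genes at least 2-fold lower was 1 under all 6 settings and 0 with a signal minimum of 500, since Fst reaches 469. With a minimum of 100 it was 3 by the deposited signals and 2 with signals below 100 set to 100, an alternative added after the data were seen. At 3-fold it went from 0 to 1 with a minimum of 100, through the deposited ratio of Gdf10, and stayed at 0 with low signals set to 100. The count at least 2-fold higher was 0 under every setting. At 1.5-fold lower, the count of 1 became 2 when ratios were centred on the median (Ltbp1 added), 2 when the probe set with the largest ratio stood for each gene (Tgfbi added), 5 with a minimum of 100 (4 with low signals set to 100) and 0 with a minimum of 500. At 1.5-fold higher, the count of 2 fell to 1 with centring, with quantile normalization and with the median over probe sets, each of which left Skil without Smad4, and was 3 (Bmp7, Skil and Smad4) at the probe set with the largest ratio. Among other pathway genes, 2 were at least 2-fold lower, or 4 at the probe set with the largest ratio, and 0 were at least 2-fold higher, or 1 with a minimum of 100. Shares of all genes past a fold threshold were not computed with a minimum of 500. With a minimum of 100 they were computed only at 2-fold with low signals set to 100. The other counts with these minimums therefore cannot be set against the array as a whole. The median log2 ratio of the 34 genes ran from -0.10 to 0.02, so its sign is not fixed. Of 252 single log2 ratios recomputed, 16 moved by at least the spread between probe sets, 12 of them where low signals were raised. No replicate could be left out, and no paired analysis was possible because each diet has 1 array.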

Other observations

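Dimmer probe sets tended to have lower ratios than the brightest one of the same gene. Among the TGF-beta, BMP and activin genes, 10 of 16 dimmer probe sets with a mean signal of 100 or more had a log2 ratio below that of the brightest, with a median difference of -0.21. Over all genes the share was 61.1% of 3818 dimmer probe sets, with a median difference of -0.11, so the share among these genes (62.5%) was near that of the array as a whole. The largest such gaps were those of Acvr1 (718 and 763 against 143 and 68.4) and Smad4 (2034 and 3101 against 869 and 681).

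Cell cycle markers, examined beside the pathway because TGF-beta is known to restrain proliferation, were higher on the GW9662 array. All 12 measured markers had a higher signal (median log2 ratio 0.39), and 0 reached 2-fold. At 1.5-fold, 5 of the 12 were higher, beside 6.41% of all genes with a signal of 300. A link between these markers and TGF-beta signaling was not tested. Cdk1, the mitotic kinase, had 921 and 1826, and Mki67, which encodes the Ki-67 antigen, had 796 and 1281. The cell cycle inhibitors Cdkn1a (1568 and 1691) and Cdkn2b (422 and 525), both known to be induced by TGF-beta, had 1.08-fold and 1.25-fold higher signals. Myoepithelial and smooth muscle markers had a median of -0.21 over 11 genes, macrophage markers 0.14 over 10 and squamous keratinization markers 0.31 over 4. Only 1 lymphocyte marker, Ptprc (656 and 623), had a mean signal of 100, and 9 housekeeping genes had a median of -0.04.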
